A study of Bos indicus x Bos taurus with 17 samples.

Results

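Erythropoietin (EPO), its receptor (EPOR), thrombopoietin (THPO), stem cell factor (KITLG), its receptor (KIT), the chemokine CXCL12 and its receptor CXCR4 were followed across fetal liver and fetal skeletal muscle. These 7 genes, 4 ligands and 3 receptors, were taken by exact symbol from the 21048 genes of the liver and muscle count tables, and all 7 were found once in each table. The fetuses were F1 crosses of Bos taurus indicus (Nelore) and Bos taurus taurus (Holstein) cattle, collected at about day 105 of gestation and labelled healthy. The ART-Normal group held 4 fetuses conceived by assisted reproductive technology and not classed as large offspring syndrome, an overgrowth condition of ruminant fetuses. The weight class of ART-Normal 4 is not given in the sources used here, and its label gives only the conception method and a healthy state. The Control-AI group held 2 fetuses conceived by artificial insemination, numbered 2 and 4 in the labels. Liver and muscle came from each of these 6 fetuses, so that 12 libraries of poly(A)-selected RNA were compared.

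Fetal liver is a site of blood formation before the bone marrow takes over. EPO drives red cell precursors through EPOR, THPO drives megakaryocytes and stem cells, KITLG sustains stem cells, mast cells and melanocytes through KIT, and CXCL12 draws stem cells and leukocytes that carry CXCR4. EPO is made under the control of oxygen-sensing factors, mainly in the liver before birth and in the kidney afterwards. Circulating THPO is known to come largely from hepatocytes, whereas KITLG and CXCL12 are products of stromal and endothelial cells in many tissues.

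Total counts ranged from 18454088 to 43339598 per liver library and from 12433300 to 23578362 per muscle library. Levels are given as CPM, the counts of a gene per 1e+06 counts of the library, scaled by the trimmed mean of M-values (TMM), which corrects for differences in RNA composition. The Control-AI 2 fetus stood apart in both tissues. Its liver library had a TMM factor of 0.761, against 0.963 to 1.09 in the other 11 libraries, and it lay alone on the first principal component in liver (51.1% of variance) and in muscle (53.9%). Each liver library carried hepatocyte genes and each muscle library carried sarcomere genes, as labelled. The summed hepatocyte markers of the Control-AI 2 fetus reached 358134 CPM in liver, where the other 5 libraries lay between 36967 and 70133, and 392 CPM in muscle, where the others lay between 26.1 and 67.5. Not every marker took part. In its liver ALB, AFP, APOA2, SERPINA1, AHSG, TF and FGB were the highest of all livers. HNF4A (256 CPM), TTR (2199 CPM) and APOA1 (1556 CPM) lay within the range of the other livers. In its muscle HNF4A and APOA1 lay within the range of the others, and the remaining markers were the highest. Values that rest on this fetus are therefore given with and without it.

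The sharpest contrast of the 7 genes was between the tissues and not between the conception methods. EPOR was 65.9-fold higher in liver by pooled counts, and EPO was detected in liver and not, at this depth, in muscle. THPO, KITLG, KIT, CXCL12 and CXCR4 were all higher in muscle, by 1.67-fold for KIT to 4.26-fold for CXCR4. Each of the 6 genes other than EPO differed in the same direction in 6 of 6 fetuses. A gene was tested if every library of 1 group reached 5 CPM, and it was called at an adjusted p of 0.05 or lower in edgeR's quasi-likelihood test. A gene under 5 CPM in 1 tissue thus entered the test only through the tissue where it was high, as EPOR did through liver. Of the 7 genes, 6 passed the filter and 6 were called, beside 81.3% of the 12923 genes tested, while 82.3% of tested genes had an unadjusted p under 0.05. EPOR alone was called higher in liver, a direction taken by 40.6% of tested genes, and 5 were called higher in muscle, a direction taken by 40.7%. A difference between these tissues was thus common to most genes, and the counts of the 7 genes are read only as directions.

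**Figure D1:**
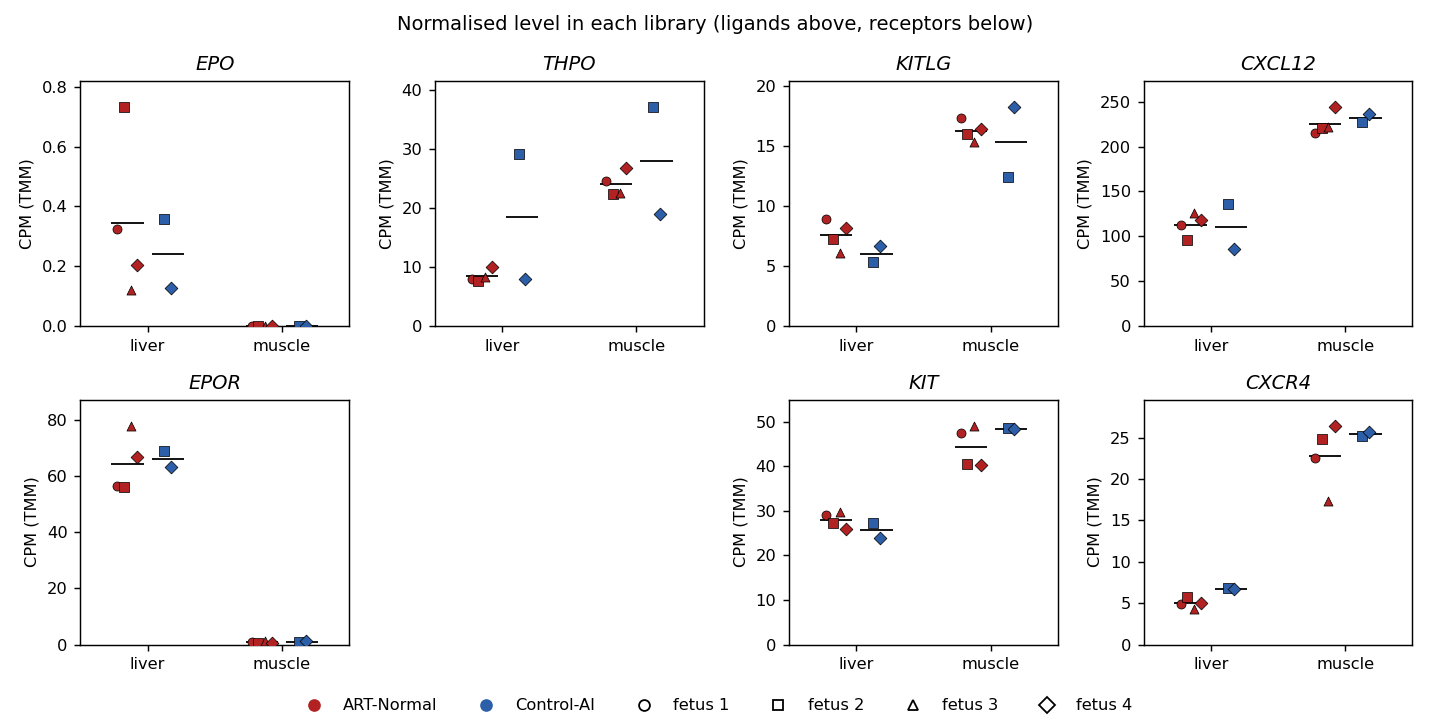
TMM-scaled CPM (vertical axes, each starting at 0) of the 4 ligands (upper row) and the 3 receptors (lower row) in liver and muscle, with 1 symbol per library, color for conception group, shape for the fetus number within its group and a bar at the group mean (ART-Normal n = 4, Control-AI n = 2). EPOR lay between 56.3 and 78.0 CPM in liver and at or below 1.14 CPM in muscle, and the THPO level of the Control-AI 2 fetus was the highest of its tissue in both liver and muscle.

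EPO (gene 280784, chromosome 25, 35873017 to 35875546, minus strand, build ARS-UCD1.2) was at the limit of detection. The liver libraries held 7, 33, 3 and 6 EPO counts in ART-Normal 1 to 4 and 5 and 3 counts in Control-AI 2 and 4. All 6 muscle libraries held 0. Only ART-Normal 2, the most deeply sequenced liver, had more than 7 counts, at 0.761 CPM by library size with an exact Poisson 95% interval of 0.524 to 1.07, while the other livers lay between 0.118 and 0.311 CPM. Pooled over the 6 fetuses, 57 counts in liver gave 0.351 CPM (exact Poisson 95% interval 0.266 to 0.455, counting error only). No count among 118168352 in muscle allows up to 0.0254 CPM, taking 3 counts over the group as the limit. The pooled liver level was thereby 13.8-fold the muscle limit, or 6.79-fold without ART-Normal 2, which held 33 of the 57 counts. Both ratios leave out the counting error in liver and are not lower bounds. No test was made fetus by fetus, since with 0 counts in every muscle no difference could be negative. In ART-Normal 3 the liver level of 0.118 CPM lay under the 0.134 CPM that 0 counts allow in its own muscle library. The Control-AI 4 liver, at 0.127 CPM, lay at the 0.127 CPM limit of its muscle. Only in ART-Normal 2 did the lower end of the liver interval (0.524 CPM) exceed the limit of its own muscle library (0.176 CPM). In every other fetus that lower end fell under the muscle limit, and the 2 tissues were not resolved at this depth. EPO did not pass the filter in either tissue and has no place in the counts of called genes.

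EPOR (gene 281144, chromosome 7, 15775538 to 15781007, minus strand), the receptor that carries the survival signal of red cell precursors, had the largest fitted tissue difference of the 6 tested genes. The livers of ART-Normal 1 to 4 had EPOR levels of 56.6, 56.3, 78.0 and 66.8 CPM, and those of Control-AI 2 and 4 had 69.2 and 63.5 CPM. In muscle the 6 libraries lay between 0.445 and 1.14 CPM, from 8 to 28 counts each. No muscle library came near the liver range. The log2 fold change of liver over muscle was 6.18 (SE 0.18, 95% interval 5.79 to 6.58, adjusted p = 1.02e-12 in edgeR), and the pooled count ratio was 65.9 (95% interval 54.7 to 80.1, counting error only). Of all tested genes, 6.72% were called with a log2 difference of 6 or more in either direction. EPOR passed the filter only through its liver libraries, where it was high.

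THPO (gene 538672, chromosome 1, 82814295 to 82821620, plus strand) was lower in liver than in muscle in each fetus. The livers of ART-Normal 1 to 4 measured 7.98, 7.62, 8.34 and 10.03 CPM, and those of Control-AI 2 and 4 measured 29.1 and 7.87 CPM. The muscles of the ART-Normal fetuses measured 24.5, 22.3, 22.5 and 26.8 CPM, against 37.0 and 18.9 CPM for the controls. Apart from Control-AI 2 the livers thus lay within a narrow band, while the liver of Control-AI 2 exceeded all 4 ART-Normal muscles, which made THPO the only tested gene of the 7 whose tissues overlapped. Tissues did not overlap for 64.4% of all tested genes. The log2 fold change of liver over muscle was -1.19 (SE 0.28, 95% interval -1.80 to -0.59, adjusted p = 0.00131 in edgeR) and -1.46 without Control-AI 2. In the Control-AI fetuses alone it was -0.61 (adjusted p = 0.497 in edgeR). The summed hepatocyte markers were also highest in Control-AI 2 in both tissues, as given above. HNF4A and APOA1 of that list were not the highest there in either tissue, nor was TTR in liver. The part of these markers in its THPO level was not tested.

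THPO acts on megakaryocytes and their progenitors, so the markers of that lineage were set beside it. They include the platelet glycoproteins and platelet factor 4, and they summed to between 623 and 909 CPM in liver and between 5.41 and 8.55 CPM in muscle. All 8 measured markers of that list were called higher in liver. THPO transcripts were therefore more abundant in the tissue in which megakaryocyte markers were lower.

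KITLG (gene 281885, chromosome 5, 18251955 to 18311647, minus strand), the membrane-bound or shed ligand of KIT, measured 8.95, 7.25, 6.05 and 8.14 CPM in the livers of ART-Normal 1 to 4. The Control-AI livers had 5.34 and 6.63 CPM. The ART-Normal muscles had 17.4, 16.0, 15.3 and 16.5 CPM, and the muscles of Control-AI 2 and 4 had 12.5 and 18.2 CPM. All muscle values exceeded all liver values, and Control-AI 2 was the lowest of both tissues. The log2 fold change of liver over muscle was -1.17 (SE 0.14, adjusted p = 2.50e-06 in edgeR).

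KIT (gene 280832, chromosome 6, 70166681 to 70254049, plus strand), a receptor tyrosine kinase of stem cells, mast cells, melanocytes and germ cells, was the steadiest of the 7 across the liver libraries. The ART-Normal livers had 29.0, 27.2, 29.7 and 25.9 CPM, and the Control-AI livers had 27.4 and 23.9 CPM. The corresponding muscles had 47.4, 40.4, 49.1 and 40.3 CPM in the ART-Normal fetuses, and 48.6 and 48.3 CPM in the controls. The tissues did not overlap, and the difference was the smallest of the 6 called genes, at a log2 fold change of -0.74 (SE 0.09, adjusted p = 3.23e-06 in edgeR). Mast cell markers were near 0 in both tissues, with sums of 1.57 to 2.77 CPM in liver and 1.45 to 2.65 CPM in muscle. The mast cell gene FCER1A was at 0 in all muscle libraries. Melanocyte markers summed to 6.78 to 9.96 CPM in muscle and 0.342 to 3.35 CPM in liver, or 0.342 to 1.25 CPM in liver without Control-AI 2. SOX10, which Schwann cells also express, led the muscle sum at 3.403 to 6.56 CPM, followed by PMEL at 1.39 to 2.59 CPM. TYRP1 lay between 0.525 and 0.811 CPM in muscle and at or below 0.0712 CPM in liver. MLANA lay between 0.122 and 0.727 CPM in muscle. The pigment enzymes TYR and DCT were at or below 0.0408 and 0.367 CPM in muscle, and DCT was at 0 in all livers. The part of either cell type in the KIT levels was not tested. In bulk tissue, fewer cells of a type and less RNA per cell cannot be told apart.

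CXCL12 (gene 613811, chromosome 28, 45022335 to 45051626, plus strand) measured 112, 96.2, 126 and 118 CPM in the ART-Normal livers, while the livers of Control-AI 2 and 4 had 136 and 85.4 CPM. The ART-Normal muscles had 215, 221, 222 and 244 CPM, and those of the controls had 227 and 236 CPM. The Control-AI livers were the highest and the lowest of that tissue, while the muscle levels were close to each other and all above the liver levels. The log2 fold change of liver over muscle was -1.01 (SE 0.11, adjusted p = 7.29e-07 in edgeR).

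CXCR4 (gene 281736, chromosome 2, 61250149 to 61253862, plus strand), the chemokine receptor through which CXCL12 retains stem cells in their niche and guides migrating muscle precursors, had the largest muscle excess of the 7. The livers of ART-Normal 1 to 4 had 4.94, 5.74, 4.27 and 4.96 CPM, and those of Control-AI 2 and 4 had 6.77 and 6.67 CPM. For muscle the ART-Normal levels were 22.5, 24.8, 17.3 and 26.4 CPM and the control levels 25.2 and 25.7 CPM. The lowest muscle, ART-Normal 3, was also the fetus with the lowest liver level. The log2 fold change of liver over muscle was -2.09 (SE 0.13, 95% interval -2.37 to -1.81, adjusted p = 2.24e-09 in edgeR). Stromal markers, led by collagen genes, summed to 21159 to 27164 CPM in muscle and 690 to 1337 CPM in liver, and endothelial markers to 794 to 883 CPM and 506 to 548 CPM. Among the tested stromal markers 7 of 8 were called higher in muscle, as were 6 of 8 endothelial markers, with 1 endothelial marker called higher in liver. The part of these cell types in the KITLG, CXCL12 and CXCR4 levels was not tested.

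**Figure D2:**
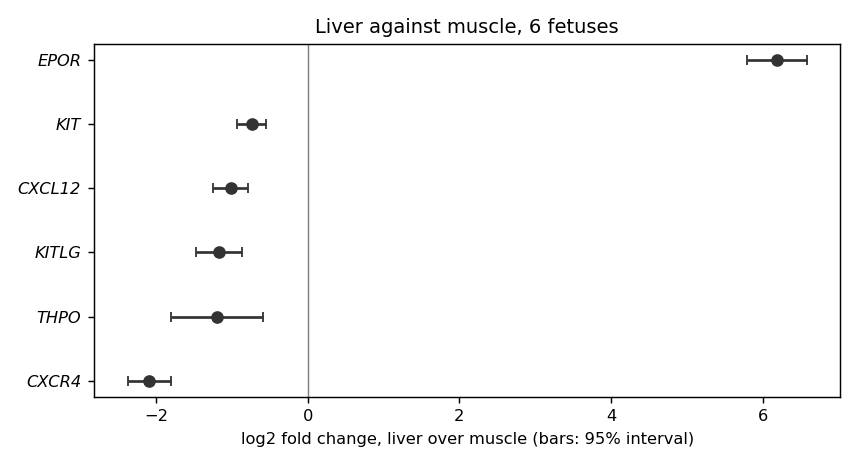
Log2 fold change of liver over muscle (horizontal axis) for the 6 tested genes with 95% intervals from edgeR's quasi-likelihood fit over 6 fetuses per tissue. EPOR stands at 6.18, and the other 5 genes lie between -0.74 (KIT) and -2.09 (CXCR4), with every interval clear of 0.

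KITLG and CXCL12 were next set against their receptors within the same library. Library scaling then cancels except through the constant added to each level. The ratio was taken as log2 of ligand over receptor after adding 0.5 CPM to each, and it is read only between tissues, since the tables counted reads over whole genes with their introns and the genes differ in length. CXCL12 over CXCR4 was higher in liver, at 4.22 ± 0.40 (SD, n = 6) against 3.25 ± 0.20 in muscle. The mean within-fetus difference was 0.97 (SD 0.31), and it was positive in 6 of 6 fetuses. KITLG over KIT was lower in liver, at -1.89 ± 0.28 against -1.49 ± 0.25, with a mean difference of -0.40 (SD 0.13) that was negative in 6 of 6 fetuses. CXCL12 and CXCR4, and likewise KITLG and KIT, were both higher in muscle, so these differences describe the unequal size of 2 changes in the same direction.

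EPO over EPOR was not compared between the tissues. EPO had no counts in any muscle library, so that both the direction and the size of such a ratio would be set by the added 0.5 CPM. Each of the 2 pairs that were compared gave a p of 0.03125 in the exact two-sided sign-flip permutation test, the smallest that 6 fetuses allow, and 0.03125 after Benjamini-Hochberg adjustment over the 2 pairs.

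**Figure D3:**
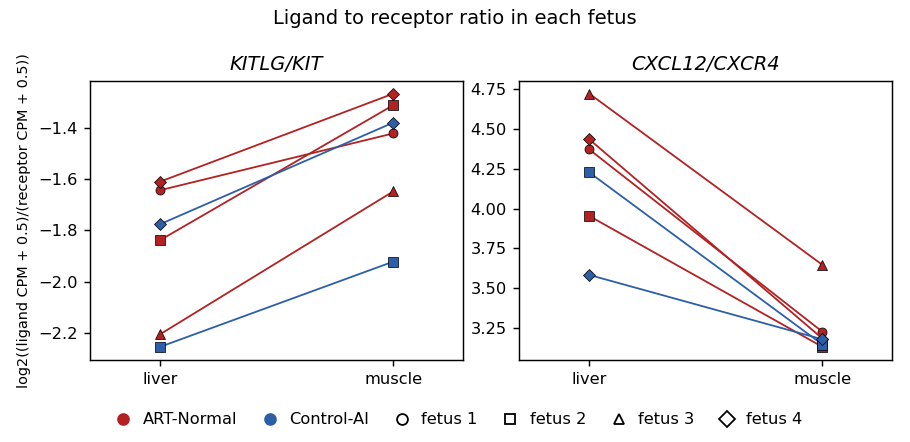
Log2 ratio of ligand to receptor after adding 0.5 CPM to each (vertical axes, with different ranges and not starting at 0) in liver and muscle, with 1 line per fetus colored by conception group and shaped by its number within the group. The lines of each pair run the same way in all 6 fetuses, upward from liver to muscle for KITLG/KIT and downward for CXCL12/CXCR4.

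The 7 genes differed in how far the fetuses spread. In liver the coefficient of variation over 6 fetuses was 7.72% for KIT, 12.6% for EPOR, 16.6% for CXCL12, 18.2% for CXCR4, 18.9% for KITLG and 72.0% for THPO, where the median of all tested genes was 14.3%. The THPO value exceeded those of 99.2% of tested genes and was 11.5% without Control-AI 2. In muscle CXCL12 had the lowest spread of the 7, at 4.73%, and THPO the highest among those tested, at 24.8%, or 12.6% without Control-AI 2. The muscle median over all tested genes was 13.5%.

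The genes whose levels ran most closely with each gene across libraries are given as a description. All genes of a library share its RNA composition and depth, and the liver and muscle libraries of a fetus come from the same animal. For genes tested in both tissues, Pearson's r was taken on log2 CPM over 12 libraries after the mean of each tissue was subtracted, among 10076 genes. CXCR4 ran closest with EGR1, an immediate early transcription factor (r = 0.938, or 0.925 over the 10 libraries without Control-AI 2), and with NEMP2 (r = 0.912). KITLG ran closest with RPS27A, a ubiquitin and ribosomal protein fusion (r = 0.941), and SLC25A5, a mitochondrial ADP/ATP carrier (r = 0.941). KIT ran closest with CRK, an adaptor protein (r = 0.866), and SLC41A2 (r = 0.855). CXCL12 ran closest with IGFBP7, a secreted insulin-like growth factor binding protein (r = 0.863), and FAM118A (r = 0.839). THPO ran closest with RNF214 (r = 0.968) and SMYD4 (r = 0.967), but without Control-AI 2 these fell to 0.509 and 0.362. EPOR, tested in liver alone, ran closest with ENTR1 and KCP over 6 liver libraries among 11304 genes, both at r = 0.995.

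The second question was whether conception by ART changed these genes in the ART-Normal fetuses. None of the 7 was called in liver or in muscle. In liver 6 of the 7 passed the filter and 0 were called by edgeR's quasi-likelihood test, beside 0% of the 11304 genes tested. At an unadjusted p under 0.05, THPO alone of the 6 passed, beside 8.39% of all tested genes, and none of the 6 was called by edgeR's likelihood ratio test or by DESeq2, which called 89 and 56 genes in all. In muscle 5 passed the filter and 0 were called, beside 0.00855% of 11695 genes, which is 1 gene, and none of the 5 had an unadjusted p under 0.05, beside 9.19% of all tested genes. The likelihood ratio test and DESeq2 called 120 and 106 genes in muscle, with none of the 5 among them. The 1 gene, named after its values were seen, was ANKRD1, a stress-responsive muscle ankyrin repeat protein. Its ART-Normal muscles had 4.04 to 5.15 CPM against 18.7 and 19.7 CPM for the controls. ANKRD1 passed the filter only through the Control-AI muscles, where it was high. With 2 control fetuses, the intervals below bound what could have been seen.

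In liver EPOR averaged 64.4 ± 10.3 CPM (SD, n = 4) in ART-Normal, and the control values lay inside the ART-Normal range. Its log2 fold change, taken as ART-Normal relative to Control-AI, was -0.06 (95% interval -0.43 to 0.31, adjusted p = 0.91 in edgeR). For KIT it was 0.11 (-0.23 to 0.45) and for CXCL12 0.01 (-0.42 to 0.44). KITLG averaged 7.60 ± 1.25 CPM in ART-Normal livers, with a log2 fold change of 0.32 (-0.20 to 0.85, adjusted p = 0.645 in edgeR). KITLG passed the filter in liver only through the ART-Normal group. EPO was too sparse to compare, with 3 to 33 counts in ART-Normal and 3 to 5 in Control-AI livers, and its unfiltered log2 fold change of 0.59 had a 95% interval from -1.84 to 3.01.

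CXCR4 was the only one of the 6 tested genes whose liver groups did not overlap, at 4.98 ± 0.60 CPM (SD, n = 4) in ART-Normal against 6.77 and 6.67 CPM in Control-AI. Groups of 4 and 2 did not overlap for 18.5% of all tested genes. CXCR4 passed the filter in liver only through the Control-AI group, where it was higher, since not every ART-Normal liver reached 5 CPM. The lack of overlap is therefore given as a description only. Its log2 fold change was -0.44 (SE 0.21, 95% interval -0.92 to 0.03, adjusted p = 0.589 in edgeR). The difference did not pass the test.

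THPO had the largest fitted conception difference of the 7 in liver, at -1.13 (SE 0.41, 95% interval -2.04 to -0.22, adjusted p = 0.548 in edgeR), and it rested on 1 fetus. The ART-Normal livers averaged 8.49 ± 1.06 CPM, the Control-AI 4 liver lay at 7.87 CPM within their range, and the Control-AI 2 liver lay at 29.1 CPM. Without Control-AI 2 the log2 fold change was 0.12, and without Control-AI 4 it was -1.81 (adjusted p = 0.000782 in edgeR), in which the lone control was assumed to vary like the ART-Normal fetuses. In muscle the same fetus again had the highest THPO level, and the log2 fold change of -0.24 (SE 0.24, adjusted p = 0.815 in edgeR) turned to 0.33 when that fetus was left out, and to -0.65 without Control-AI 4 (adjusted p = 0.0355). Conception method and the make-up of the Control-AI 2 samples cannot be told apart for THPO in these libraries.

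The other muscle genes showed small fitted differences. KIT averaged 44.3 ± 4.57 CPM in ART-Normal, with a log2 fold change of -0.15 (95% interval -0.46 to 0.17). CXCL12 averaged 225 ± 12.7 CPM, with -0.06 (-0.33 to 0.22), the narrowest interval of the 5. KITLG gave 0.06 (-0.34 to 0.47) and CXCR4 -0.18 (-0.59 to 0.23). EPOR did not pass the filter in muscle, and EPO had no counts there.

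**Figure D4:**
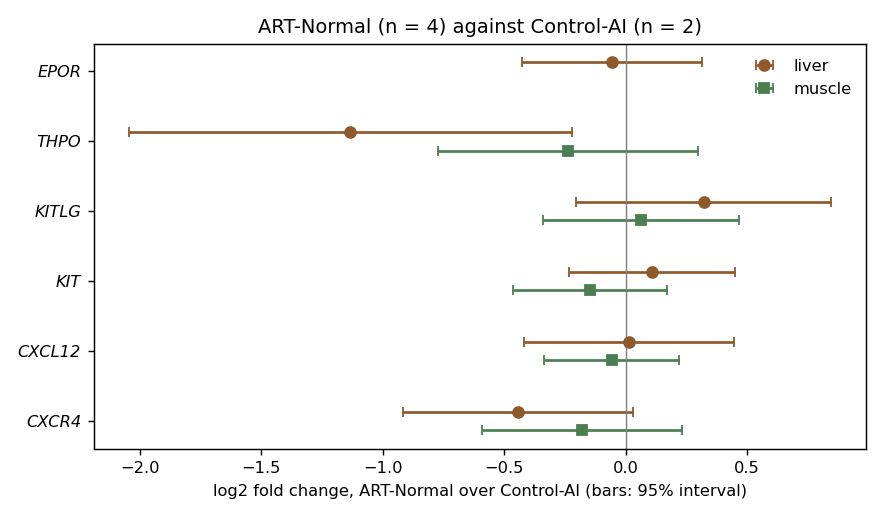
Log2 fold change between ART-Normal (n = 4) and Control-AI (n = 2), positive where ART-Normal was higher, with 95% intervals from edgeR's quasi-likelihood fit, in liver (circles) and muscle (squares), for the genes tested in each tissue. The interval of THPO in liver (-2.04 to -0.22) was the only one that excluded 0 before adjustment, and no gene was called after it.

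Whether the conception difference itself differed between tissues was tested as an interaction term. None of the 12923 tested genes was called by edgeR's quasi-likelihood test, beside 5.50% at an unadjusted p under 0.05, 98 genes by the likelihood ratio test and 37 by DESeq2. Of the 7 genes 6 were tested, 0% of all tested genes and 0 of these 6 were called, none had an unadjusted p under 0.05, and neither other tool called any. The liver minus muscle difference was -0.87 for THPO (SE 0.55, adjusted p = 0.941 in edgeR), 0.35 for EPOR (SE 0.37), 0.27 for KITLG (SE 0.30), 0.27 for KIT (SE 0.19), 0.09 for CXCL12 (SE 0.23) and -0.25 for CXCR4 (SE 0.27).

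The wider pathway was described with 4 lists. Among the partners of the 7 genes, meaning other receptors, ligands and clearing receptors, 14 of 18 genes in the tables were tested between tissues. Of these, 7 were called higher in liver, 5 were called higher in muscle and 2 were not called. Of all tested genes, 40.6% were called higher in liver and 40.7% higher in muscle. The median log2 fold change of the partners was 0.22, against 0.01 for all tested genes. The highest were ASGR2 and ASGR1, the hepatocyte receptor subunits that clear aged glycoproteins and platelets. ASGR2 averaged 327 ± 50.3 CPM (SD, n = 6) in liver against 8 counts in all muscle libraries together, and ASGR1 averaged 207 ± 26.5 CPM, also against 8 counts. IL6R, the interleukin 6 receptor, followed with a log2 fold change of 2.60 (SE 0.14, adjusted p = 4.30e-10 in edgeR). The partners called most strongly higher in muscle were CSF2RA, a subunit of the GM-CSF receptor (log2 fold change -1.77, SE 0.17), IL11RA, the interleukin 11 receptor (-1.40, SE 0.15), and CSF1, the macrophage growth factor (-1.35, SE 0.13). The adjusted p of these 3 in edgeR was at most 6.26e-07. CSF1R, the receptor of CSF1, was called higher in liver, so that this ligand and its receptor differed in opposite directions (0.61, SE 0.12, adjusted p = 0.000228 in edgeR).

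In the signal chain below the receptors, 24 of 25 genes were tested, of which 11 were called higher in liver, 6 were called higher in muscle and 7 were not called (median 0.20). Of all tested genes 81.3% were called, 40.6% higher in liver and 40.7% higher in muscle. RAC2, a GTPase of blood cells, was highest in liver by log2 fold change (4.43, SE 0.21), followed by LYN, a Src-family kinase (2.61, SE 0.10), and PTPN6, the phosphatase that dampens EPOR and KIT signals (2.22, SE 0.12). JAK2, the kinase bound to EPOR, was higher in liver at 59.0 to 96.6 CPM against 26.02 to 34.1 CPM in muscle (1.31, SE 0.11), and so was CISH, a feedback target of STAT5 (1.77, SE 0.15). CBL, a ubiquitin ligase for KIT (-1.08, SE 0.09), the docking protein GAB1 (-0.82, SE 0.09) and GNAI2, a G protein subunit used by CXCR4 (-0.57, SE 0.08), were higher in muscle. Each of these 8 genes had an adjusted p of at most 1.54e-05 in edgeR.

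Among the genes of oxygen sensing and EPO control, 10 of 12 were tested, of which 3 were called higher in liver and 6 higher in muscle (median -0.33). Those directions were taken by 40.6% and 40.7% of all tested genes. HNF4A, which acts on the EPO enhancer, averaged 256 ± 23.8 CPM in liver against 24 counts in all muscle libraries together, and GATA4 averaged 34.1 ± 4.55 CPM in liver against 1 muscle count. EPAS1 (HIF-2 alpha), the oxygen-regulated factor tied most closely to EPO, was higher in liver by a log2 fold change of 2.101 (SE 0.11, adjusted p = 3.98e-10 in edgeR). HIF1A (-0.59, SE 0.09) and the prolyl hydroxylases EGLN3 (-1.43, SE 0.13) and EGLN1 (-0.51, SE 0.09) were higher in muscle, with adjusted p of at most 0.00015 in edgeR. EGLN1 was not called in the Control-AI fetuses alone (-0.36, adjusted p = 0.195 in edgeR).

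Of the stem and progenitor cell markers, 12 of 13 were tested, 10 were called higher in liver and 2 higher in muscle (median 2.29). Over all tested genes the shares were 40.6% higher in liver and 40.7% higher in muscle. TAL1, a master factor of blood development, averaged 730 ± 85.7 CPM in liver and 12.6 ± 2.05 CPM in muscle, and MYB averaged 55.9 ± 6.42 CPM and 3.79 ± 0.787 CPM. GFI1B, a transcriptional repressor that acts in the erythroid and megakaryocyte lineages, averaged 59.3 ± 9.86 CPM in liver against 5 counts in all muscle libraries together. PROM1 (-1.81, SE 0.15) and MEIS1 (-1.09, SE 0.12), both also expressed outside blood, were higher in muscle. KIT and CXCR4 were therefore higher in the tissue in which 10 of these 12 markers were lower.

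The erythroid markers ran with EPOR. They summed to 12453 to 29776 CPM in liver and 627 to 1360 CPM in muscle, or 12453 to 14228 CPM in liver without Control-AI 2, and 16 of 18 were called higher in liver, while the alpha globin entries HBA and HBA1 were not. Markers of neutrophils and macrophages summed to 420 to 568 CPM in liver and 47.0 to 70.6 CPM in muscle, and lymphocyte markers to 8.26 to 13.3 CPM and 3.73 to 5.002 CPM. The part of these cells in the tissue differences of the 7 genes was not tested. Between the conception groups 0 genes of the 4 pathway lists were called in either tissue by edgeR's quasi-likelihood test. At an unadjusted p under 0.05 there were 2 of 14 partners, 1 of 24 signal chain genes and no gene of the other lists in liver. In muscle there were 1 of 11 partners and 1 of 9 progenitor markers. The likelihood ratio test called no gene of these lists in either tissue, and DESeq2 called none in liver and 1 in muscle, LYL1, a blood transcription factor named here after its values were seen. LYL1 stood at 31.7 CPM in the Control-AI 2 muscle, whereas Control-AI 4, at 9.10 CPM, lay within the ART-Normal range of 7.26 to 9.57 CPM.

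**Figure D5:**
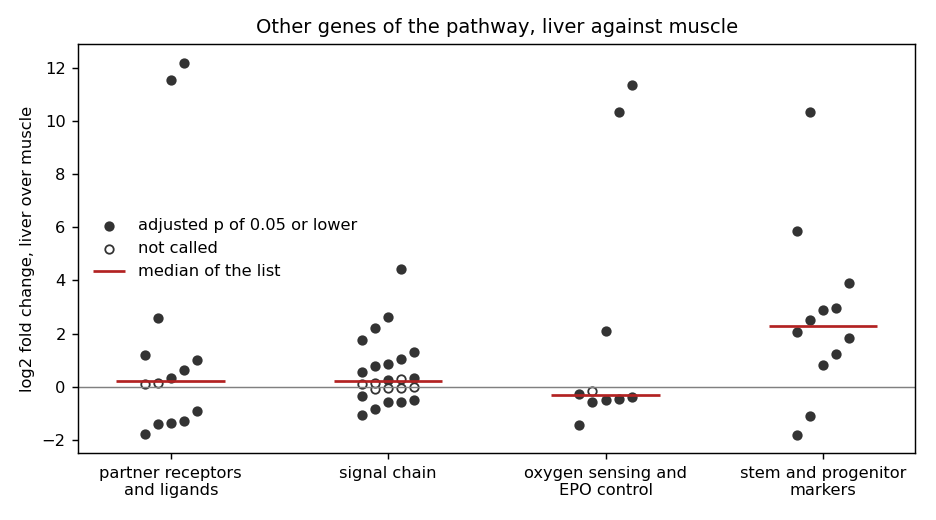
Log2 fold change of liver over muscle (vertical axis) for the tested genes of 4 pathway lists, with 1 point per gene, filled where the adjusted p was 0.05 or lower and open where it was not, and a line at each list's median. Medians were 0.22 for partners, 0.20 for the signal chain, -0.33 for oxygen sensing and 2.29 for progenitor markers, and fitted values above 9 belong to genes with 1 to 24 counts in all muscle libraries together.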

How the data were processed

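The authors deposited counts per gene for each tissue. Per the labels, stranded poly(A) libraries were sequenced as 150 bp pairs. The submitters' processing notes name HISAT2 2.1.0, featureCounts and edgeR 3.24.3 with the ARS-UCD1.2 build; the strand setting is not given in the sources used here. Gene lengths in the tables equal the whole gene span, so reads in introns could count. None of the 7 genes overlaps another listed gene. In all, 14 columns that match no sample here were not used, and kidney was not analysed here. The values of 1 gene of the partner list are not reported here.

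Counts were fitted with edgeR 4.0.16 (R 4.3.3): TMM within each comparison, quasi-likelihood test, two-sided, Benjamini-Hochberg over all tested genes. Genes needed 5 CPM in all libraries of a group. SE is the size of the log2 fold change divided by the square root of F. Printed CPM used TMM over all 12 libraries. The likelihood ratio test, DESeq2 1.42.0, RLE and unscaled sizes, other filters, left-out fetuses and blocks were alternatives. The main fit of each comparison was tested on simulated counts, and the alternatives and other steps were not.

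Liver and muscle of a fetus share its ID in the labels. Their deviations from the group means correlated at 0.207, 0.0379, 0.0776 and 0.315 over genes in ART-Normal 1 to 4 and 0.356 in each control, which with 2 per group share 1 value. Fetuses are separate animals by ID, and intervals from pooled counts cover counting error only.

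The 7 genes and all lists were chosen with earlier results of these data known. Named genes were the 7, the 3 largest called differences each way per pathway list and comparison, and the 2 genes most correlated with each of the 7. JAK2, CISH, CSF1R, HBA and HBA1 were named after their values were seen.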

Additional observations from a re-analysis of the deposited data

How the results depend on the processing

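Between the tissues, 6 of the 7 genes were called under every scaling, test and left-out fetus (7 without a filter, where EPO entered), and 5 in the Control-AI fetuses alone, where THPO was lost. The fetus as a replicate block left 10937 genes called, against 10507, and changed no call of the 7. EPO, and EPOR in muscle, were limited by depth.

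The conception counts were less stable. In liver 0 genes became 6 with library sizes unscaled, 89 with the likelihood ratio test, 56 with DESeq2, 2 with ART-Normal 1 to 3 only, and 0 to 830 when 1 fetus was left out. In muscle 1 gene became 120, 106 and 0 with the likelihood ratio test, DESeq2 and ART-Normal 1 to 3, and 0 to 1327 with a fetus left out. The interaction gave 98 and 37 genes with those tests and 0 to 232 with a fetus left out. Same-numbered fetuses of the conception groups share only a number (correlations 0.0121 and -0.115 in liver, 0.00599 and -0.126 in muscle), and that replicate block gave 6 genes in liver and 90 in muscle. Of the 7 genes, 0 to 1 was called in each tissue with a fetus left out, THPO without Control-AI 4. The cause was not tested.

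Signs turned for small differences. In liver EPOR was 0.15 with unscaled sizes, which moved the median of all genes to 0.21, and ran from -0.16 to 0.028 with a fetus left out, positive without Control-AI 2 and at 0.002 without ART-Normal 2. THPO ran from -1.81 without Control-AI 4 to 0.12 without Control-AI 2 in liver, and from -0.65 to 0.33 without the same fetuses in muscle. CXCL12 in liver was -0.011 with ART-Normal 1 to 3, -0.031 with the block, and from -0.29 without Control-AI 4 to 0.41 without Control-AI 2, also negative without ART-Normal 3 or 4. KITLG in muscle ran from -0.17 without Control-AI 2 to 0.36 without Control-AI 4. The interaction of CXCL12 ran from -0.23 without Control-AI 4 to 0.50 without Control-AI 2.

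With a fetus left out, the ratio differences ran from -0.43 to -0.36 for KITLG/KIT and 0.91 to 1.08 for CXCL12/CXCR4, where 5 fetuses cannot give an exact p below 0.0625.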

Other observations

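In all, 4 partners of the 7 genes lay below the filter in both tissues and entered no test. FLT3, a receptor of early progenitors, lay between 1.85 and 2.77 CPM in the 6 livers and between 0 and 0.286 CPM in the 6 muscles. Its ligand FLT3LG lay between 2.66 and 4.79 CPM in liver and between 0.132 and 1.05 CPM in muscle. IL7R, the interleukin 7 receptor of lymphoid progenitors, lay between 3.88 and 5.08 CPM in liver and between 0.323 and 1.10 CPM in muscle. These 3 did not overlap between tissues, whereas IL3RA, a subunit of the interleukin 3 receptor, did, at 1.17 to 3.241 CPM in liver and 0.891 to 1.62 CPM in muscle. FLT3 and FLT3LG were thus both higher in liver in every fetus. Tissues did not overlap for 64.4% of all tested genes, and no such share was taken over genes below the filter.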
